A study of Mus musculus with 6 samples.

Results

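The endothelial transcripts described here are 9 genes, Ramp2, Cldn5, Cdh5, Pecam1, Kdr, Emcn, Tek, Tie1 and Flt1, taken by name from a table of 27179 genes, over all 6 libraries. All 9 are in the table, and 6 of them had enough counts to enter the test across genes. They are read in marrow stroma from which endothelial cells were meant to be left out. The cells were bone marrow mesenchymal stromal cells of C57BL/6 mice at postnatal day 2, heterozygous for a DsRed reporter at Cxcl12 (Cxcl12-dsred/+), which marks cells that make the chemokine CXCL12. They were sorted as DsRed-positive and negative for CD45, Ter119 and CD31, so blood, erythroid and endothelial surface markers were gated out. All 3 groups of libraries share that genotype, strain, age and sort and differ only in the RNA fraction. The 2 anti-m6A libraries hold poly(A) RNA bound for 2 h by beads carrying 1.25 micrograms of an antibody to N6-methyladenosine (m6A). The 2 IgG libraries hold RNA bound by beads carrying IgG in its place. The 2 Input libraries hold 6% of the poly(A) RNA, kept without any pull-down. The labels do not say whether the replicates came from separate mice, sorts or pull-downs, so p-values reflect only how far these libraries differ, and that spread may be technical.

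In the marrow, endothelial cells line the arterioles and sinusoids that the Cxcl12-producing stroma surrounds. The stroma and the vessel wall signal to each other through VEGF and its receptors, angiopoietins and the TIE receptors, and adrenomedullin and its receptor. N6-methyladenosine is the most common internal modification of mRNA. It is written at adenosines in a short consensus, of which GGACT is a common form, and is known to be dense near stop codons. A pull-down compared with Input asks how much of a transcript the antibody recovered relative to its abundance, and the comparison with IgG asks how much was recovered beyond nonspecific binding. No fragmentation of the RNA is given in the labels, so a count stands for a gene and does not place a modified base.

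The main pattern among the 9 genes was a change of make-up. Ramp2 held most of the sum in anti-m6A and Cldn5 held most of it in Input. As a share of raw library totals the sum overlapped between anti-m6A and Input, and on the TMM scale it was higher in both anti-m6A libraries (323 and 350 CPM) than in both Input libraries (225 and 190 CPM). Against Input, Ramp2 was higher in anti-m6A, while Tek, Pecam1 and Kdr were lower, and without either anti-m6A library only the call of Ramp2 was made (edgeR adjusted p of the others 0.143 to 0.529). In IgG the 9 genes gave 1 count in all. The transcripts of Cdh5, Tie1 and Flt1, 3 classical endothelial genes, had no count in Input.

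The library totals were 6102070 and 5133237 counts in anti-m6A, 2487148 and 1278735 in IgG and 7125578 and 9493391 in Input. Detected genes numbered 12714 and 12391 in anti-m6A, 3266 and 2723 in IgG and 10024 and 11186 in Input. The second Input library stands apart from the first, in that 548 genes had no count in Input replicate 1 and at least 100 in Input replicate 2, with 0 genes the other way, out of 8128 genes with at least 100 in either. In anti-m6A there was no such gene in either direction among 5839. Levels are given as CPM, which relate each count to the library size after TMM adjustment. A floor of 3 counts stands for 0.622 and 0.756 CPM in the anti-m6A libraries, for 1.16 and 1.94 CPM in the IgG libraries, and for 0.355 and 0.291 CPM in the Input libraries. Libraries were amplified without molecular identifiers, so intervals and floors cover counting error only.

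The stromal markers were present. All 10 stromal markers were detected in anti-m6A and in Input. Cxcl12 averaged 2101 ± 50.4 CPM in anti-m6A, 2709 ± 24.3 CPM in IgG and 4604 ± 323 CPM in Input (SD, n = 2 each). Ptprc, which encodes the CD45 used in the sort, had no count in any library. Pecam1, which encodes the CD31 used in the sort, had 92 and 69 counts in Input, so the transcript of a gated surface marker was still measured. In bulk RNA, few cells of a type and little RNA per cell cannot be told apart.

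The summed counts of the 9 genes were 1559 and 1387 in anti-m6A, 0 and 1 in IgG and 1905 and 1957 in Input. As a share of the library, this was 0.0255% (exact 95% interval 0.0243 to 0.0268) and 0.0270% (0.0256 to 0.0285) in anti-m6A. In IgG it was 0 of 2487148 counts in replicate 1, which allows a share of up to 0.000121%, and 7.82e-05% in replicate 2. In Input it was 0.0267% (0.0255 to 0.0280) and 0.0206% (0.0197 to 0.0215). On these raw totals the anti-m6A and Input ranges overlapped, at means of 0.0263 ± 0.00104% and 0.0237 ± 0.00433% (SD, n = 2 each), and the IgG libraries lay far below both. On the TMM-adjusted library size the anti-m6A and Input ranges did not overlap, and the mean share was 0.0337% in anti-m6A and 0.0208% in Input. Set against the stroma's own marker, there were 157 and 164 endothelial counts per 1000 Cxcl12 counts in anti-m6A, 0 and 0.241 in IgG and 46.7 and 43.4 in Input. Cxcl12 was itself called lower in anti-m6A than in Input by edgeR, so this ratio also carries the change of Cxcl12. The 10 stromal markers together held 0.348% and 0.354% of raw counts in anti-m6A and 1.11% and 1.08% in Input.

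Ramp2 made up 69.2% (exact 95% interval 66.9 to 71.5) and 69.1% (66.6 to 71.6) of the 9-gene sum in anti-m6A, against 5.51% (4.53 to 6.63) and 2.35% (1.73 to 3.12) in Input. Cldn5 made up 27.6% (25.4 to 29.9) and 28.2% (25.8 to 30.6) in anti-m6A, against 76.2% (74.2 to 78.1) and 59.5% (57.3 to 61.7) in Input. The 2 anti-m6A libraries had nearly the same make-up. The 2 Input libraries differed beyond their intervals in Ramp2 and Cldn5, and also in Emcn, which was 0% of the sum in replicate 1 and 26.1% (24.2 to 28.1) in replicate 2.

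**Figure D1:**
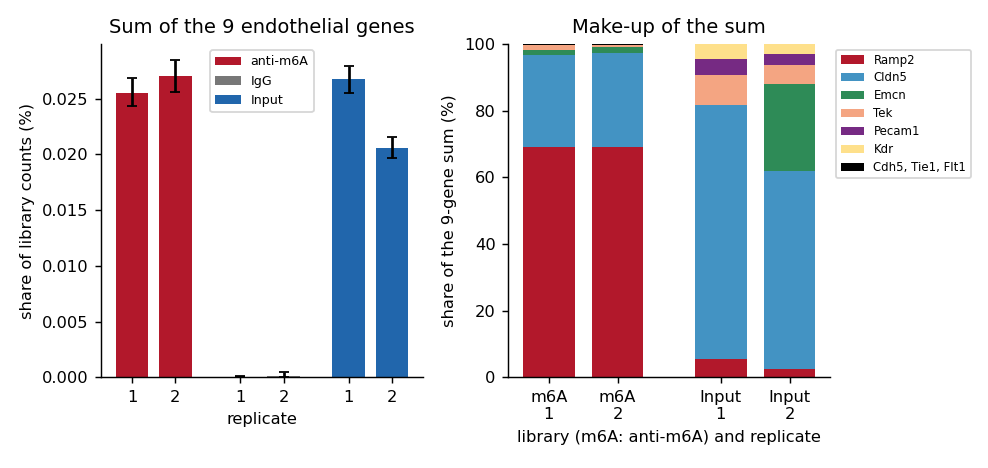
Left, share of all library counts (%) held by the 9 endothelial genes in each anti-m6A, IgG and Input library, with exact 95% binomial intervals as bars; right, make-up of that sum (%) in the anti-m6A and Input libraries. As shares of raw totals the sums overlap between anti-m6A and Input (on the TMM scale they do not, at 323 and 350 CPM in anti-m6A and 225 and 190 CPM in Input), and Ramp2 fills 69.2% and 69.1% of the anti-m6A bars and 5.51% and 2.35% of the Input bars.

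Ordered by mean CPM per kilobase of a representative transcript, anti-m6A held Ramp2 at 198 ± 10.8, Cldn5 at 66.3 ± 4.69, Emcn at 3.89 ± 0.536, Tek at 0.689 ± 0.286 and Cdh5 at 0.262 ± 0.0763 (SD, n = 2 each). In that order no 2 neighbours overlapped between replicates, down to Tie1 and Pecam1, whose ranges overlapped. In Input the order was Cldn5 at 101 ± 29.4, Emcn at 18.3 ± 25.8, Ramp2 at 7.17 ± 4.78, Tek at 3.28 ± 1.40, Pecam1 at 2.68 ± 0.903 and Kdr at 1.34 ± 0.595. There Cldn5 stood clear of the rest, Emcn, Ramp2, Tek and Pecam1 each overlapped the next in the order, and Pecam1 and Kdr did not overlap. Per length, Ramp2 was therefore the most abundant of the 9 in the bound RNA and behind Cldn5 in both Input libraries.

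Ramp2 encodes a small membrane protein that escorts the receptor CALCRL to the cell surface, where the pair forms an adrenomedullin receptor needed for vessel development. The gene lies on chromosome 11 (GRCm38, 101246334 to 101248250). It had 1079 and 959 counts in anti-m6A (224 and 242 CPM), 0 and 0 in IgG, and 105 and 46 in Input (12.4 and 4.46 CPM). Both anti-m6A libraries were above both Input libraries, with no overlap. Ramp2 averaged 233 ± 12.7 CPM in anti-m6A and 8.44 ± 5.63 CPM in Input (SD, n = 2 each). It was 27.6-fold higher in anti-m6A, at a log2 change of 4.78 ± 0.64 (SE) and an adjusted p of 0.00780 in edgeR's quasi-likelihood test. The log2 change was 5.71 without Input replicate 1 and 4.22 without Input replicate 2, so the fold depends on which Input library is used while its direction does not. Each of these fits leaves 1 Input library, so neither measures the spread within Input. Against IgG it was at least 150-fold higher in anti-m6A (edgeR adjusted p = 0.00131). A ratio within a library needs no scaling between libraries, and there were 2.51 and 2.45 Ramp2 counts per Cldn5 count in anti-m6A, against 0.0723 and 0.0395 in Input.

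The Ramp2 transcript (1178 bases, 570 of them coding) was searched on its sense strand for GGACT, with overlapping matches counted, because this is a form of the consensus at which m6A is written. It holds 4 GGACT, 3 of them coding, at 3.40 per kilobase, where the median over 20594 coding transcripts is 1.02 per kilobase. Of 1085 transcripts of like length, 8.02% hold at least as many. That share is 8.18% for Tek (9 GGACT, 7 of them coding), which was called lower in anti-m6A than in Input. It is 10.1% for Kdr and 4.29% for Flt1. The 3 coding GGACT of Ramp2 stand within 31 bases of exon 3 of 4. Of 20594 coding sequences, 17 (0.0825%) hold as many in as few bases. That stretch, chr11:101247637-101247687 on the plus strand, is shown with each GGACT in capitals, from the GENCODE M21 transcripts of GRCm38.
Ramp2 exon 3: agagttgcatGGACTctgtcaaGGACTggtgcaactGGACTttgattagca
A match describes the letters of the transcript and is not a measured site. The span and number in the cluster search were set by Ramp2 itself, and no cluster was sought for the other members. The share of 0.0825% is therefore a description and no test. Across 10306 tested genes, Spearman's rho of GGACT per kilobase with the fitted log2 change in anti-m6A against Input was 0.03. The last 100 coding bases of Ramp2, at chr11:101247967-101248066, hold no GGACT, as is so for all members but Kdr, and 11.4% of all coding sequences have one there. They are printed beside those of Cldn5 (chr16:18777553-18777652, plus strand) and Kdr (chr5:75934423-75934522, minus strand), since Ramp2 was higher in anti-m6A than in Input, Cldn5 was not called by edgeR and Kdr had no count in anti-m6A. Capitals mark GGACT and the stop codon.
Ramp2 3' coding end: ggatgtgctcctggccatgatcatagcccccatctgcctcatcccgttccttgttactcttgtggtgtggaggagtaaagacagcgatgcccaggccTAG
Cldn5 3' coding end: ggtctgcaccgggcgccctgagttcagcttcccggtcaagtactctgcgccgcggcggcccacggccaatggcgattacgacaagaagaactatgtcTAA
Kdr 3' coding end: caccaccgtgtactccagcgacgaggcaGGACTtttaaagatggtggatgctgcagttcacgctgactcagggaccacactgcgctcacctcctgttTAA

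Kdr encodes the receptor through which VEGF-A drives vessel growth. It had no count in the bound RNA. The Kdr transcript (5924 bases; gene at chromosome 5, 75932827 to 75979072) holds 10 GGACT, 7 of them coding and 1 in the last 100 coding bases, at 1.69 per kilobase beside 3.40 per kilobase for Ramp2. Kdr had no count in either anti-m6A library, none in IgG, and 88 and 56 counts in Input (10.4 and 5.43 CPM). Relative to Input the anti-m6A level was lower by at least 11.5-fold (edgeR adjusted p = 0.0118), with no overlap; 3.37% of tested genes had no count in either anti-m6A library. The call was lost in 3 of the alternative fits, among them those without anti-m6A replicate 1 and without anti-m6A replicate 2. Flt1, the other VEGF-A receptor of the list and a decoy with high affinity for the ligand, has 13 GGACT in 6895 bases (gene at chromosome 5, 147561604 to 147726438) and no count in any of the 6 libraries.

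Tek encodes TIE2, the receptor of the angiopoietins, and lies on chromosome 4 (94739086 to 94874976). It had 20 and 9 counts in anti-m6A (4.15 and 2.27 CPM), 0 and 0 in IgG, and 168 and 110 in Input (19.9 and 10.7 CPM). The anti-m6A libraries lay between IgG and Input, without overlap on either side. Tek averaged 3.21 ± 1.33 CPM in anti-m6A and 15.3 ± 6.51 CPM in Input (SD, n = 2 each), and the log2 change was -2.24 ± 0.62 (SE), with an edgeR adjusted p of 0.0445. That call was lost in 6 of the alternative fits, among them those without anti-m6A replicate 1, anti-m6A replicate 2, IgG replicate 1 or IgG replicate 2. Against IgG, Tek was at least 2.07-fold higher in anti-m6A (edgeR adjusted p = 0.00748), and at 0.0538 without anti-m6A replicate 1.

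Tie1, the orphan partner of TIE2 (chromosome 4, 118471191 to 118489849), had 2 and 0 counts in anti-m6A and none in IgG or Input. It is at the limit of detection and no fold is given. In Input, where Tek had 168 and 110 counts, Tie1 was not detectable at this depth.

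Cldn5 encodes claudin-5, the tight junction protein of endothelium, from a single exon on chromosome 16 (18776847 to 18778262). It had 430 and 391 counts in anti-m6A (89.2 and 98.6 CPM), 0 and 1 in IgG, and 1452 and 1165 in Input (172 and 113 CPM). The anti-m6A libraries lay just below the Input libraries, without overlap. The means were 93.9 ± 6.64 CPM in anti-m6A and 142 ± 41.6 CPM in Input (SD, n = 2 each). The log2 change was -0.60 ± 0.49 (SE), with an edgeR adjusted p of 0.359, while the DESeq2 Wald test called Cldn5 lower in anti-m6A (adjusted p = 0.0106). Against IgG the ratio of Cldn5 counts, summed over each pair and scaled to summed library size, was 386 (95% counting interval 69.0 to 15255; edgeR adjusted p = 0.000860), a wide interval because IgG holds a single count. Cldn5 has no GGACT in its coding sequence and 2 in the whole transcript.

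Pecam1 encodes CD31, an adhesion molecule of endothelial junctions and platelets, and lies on chromosome 11 (106654213 to 106715281). It had 1 and 0 counts in anti-m6A (0.207 and 0 CPM), none in IgG, and 92 and 69 in Input (10.9 and 6.69 CPM). Input was above both bound fractions, which overlapped each other. Summed over each pair and scaled to summed library size, Input held 75.4 times the Pecam1 counts of anti-m6A (95% counting interval 13.3 to 2997), and edgeR called Pecam1 lower in anti-m6A at an adjusted p of 0.0106. Without anti-m6A replicate 1 the edgeR adjusted p was 0.143, and without anti-m6A replicate 2 it was 0.224. The Pecam1 transcript has 1 GGACT in 3283 bases, whereas 96.6% of transcripts of like length have at least as many.

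Cdh5 encodes VE-cadherin, the adherens junction protein that defines endothelium, on chromosome 8 (104101613 to 104144504). It had 4 and 5 counts in anti-m6A (0.830 and 1.26 CPM) and none in IgG or Input. Its mean in anti-m6A was at least 3.24-fold above the Input floor, and it had too few counts to be tested. Emcn encodes endomucin, a sialomucin of capillary and sinusoidal endothelium, on chromosome 3 (137341062 to 137431069). It had 23 and 23 counts in anti-m6A (4.77 and 5.80 CPM), none in IgG, and 0 and 511 in Input (0 and 49.6 CPM). The 2 anti-m6A libraries matched, while the Input libraries lay on either side of them, so the groups overlapped. The log2 change of Emcn was -2.23 ± 2.40 (SE; edgeR adjusted p = 0.496). It was -3.21 without Input replicate 1 and 7.50 without Input replicate 2, so its direction rests on which Input library is used. The Emcn transcript has no GGACT in 1357 bases, whereas 82.5% of transcripts of like length have at least 1.

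**Figure D2:**
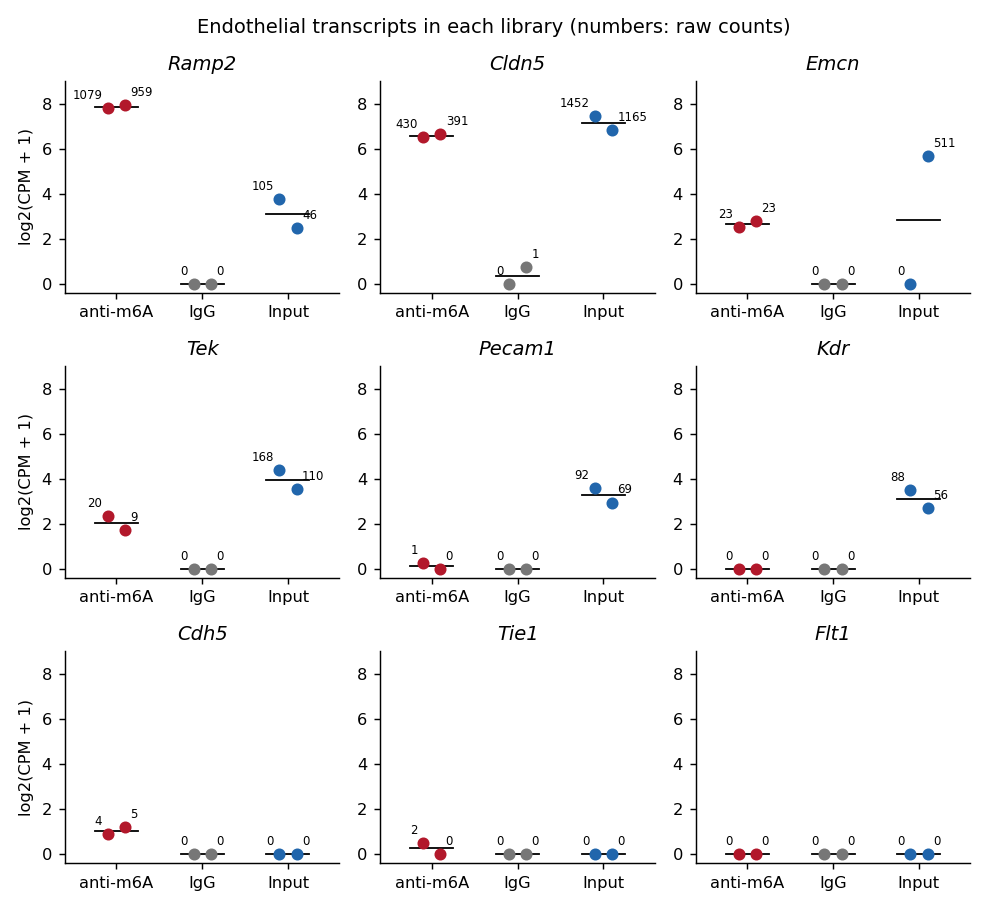
Level of each of the 9 endothelial genes as log2(CPM + 1) in each library, by group (anti-m6A, IgG, Input), with raw counts printed beside the points and a line at the mean of the 2 libraries. Ramp2 is high in anti-m6A, Kdr and Pecam1 are seen almost wholly in Input, and Emcn differs between the Input libraries (0 and 511 counts).

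In anti-m6A against Input, 1 of the 6 tested genes was called higher and 3 lower, where 28.0% of all 11281 tested genes were called higher and 20.5% lower (48.4% in either direction). Without overlap between the groups, 1 of the 6 was higher and 4 were lower, where 44.3% and 34.4% of all tested genes were. The split over all genes was 3156 higher and 2308 lower with TMM, 2711 and 2982 with DESeq2 size factors, and 2609 and 3127 with library totals. The median log2 change of the 6 was -2.23, beside 0.18 over all genes tested. With either anti-m6A library left out, Ramp2 was the 1 gene of these 4 still called. Over all genes the same exclusions left 442 calls without replicate 1 and 501 without replicate 2, of 5464 with both. Ramp2 was called under each of the alternatives fitted for it. Those without 1 library do not measure the spread of that library's group.

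In anti-m6A against IgG, 3 of the 6 were called higher (Ramp2, Cldn5 and Tek) and none lower, where 73.1% of all tested genes were called higher and 8.31% lower (81.4% in either direction). With Emcn, 4 of the 6 were higher without overlap, as were 82.2% of all tested genes. Emcn was at least 3.40-fold higher in anti-m6A but was not called (edgeR adjusted p = 0.206). Without Input replicate 1 or Input replicate 2 it was called, though Emcn's counts in anti-m6A and IgG were the same. The fit pools the spread over the 3 groups, so that call does not rest on the compared libraries alone. Kdr and Pecam1 had at most 1 count in these 4 libraries and so no fold. The median of the fitted log2 changes was 7.45 for the 6 genes and 8.48 for all genes. With genes at 0 in IgG set to their bound, or to no change where the bound lay below that, it was 1.41 for the 6 and 2.88 for all. Kdr and Pecam1 were counted in that median for the 6 although they have no fold, which lowers it.

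In IgG against Input, none of the 6 was called higher and 5 were called lower, where 9.89% of tested genes were called higher and 61.5% lower (71.4% in either direction). The same 5 were lower without overlap, as were 66.7% of all tested genes. The lower genes were Cldn5 and, with no count in IgG, Ramp2, Pecam1, Kdr and Tek. Against the IgG floor these last 4 were at least 5.44-fold, 5.66-fold, 5.10-fold and 9.84-fold lower in IgG, in that order (edgeR adjusted p = 0.00629, 0.00569, 0.00869 and 0.00277). By summed counts scaled to summed library size, Input held 576 times the Cldn5 of IgG (95% counting interval 103 to 22761; edgeR adjusted p = 0.000688). Emcn, with 0 counts in both IgG libraries, was not called (edgeR adjusted p = 0.123). It was called without Input replicate 1 or anti-m6A replicate 2, and anti-m6A enters this comparison only through the shared fit. Absence from IgG was common: 73.4% of tested genes had no count in either IgG library, and so had 76.6% of the 6347 genes within these 6 genes' range of Input CPM and 78.2% of the 9740 within their range of anti-m6A CPM. The 3 comparisons share libraries in pairs, so their values stand side by side and are not independent.

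The partners of these receptors were measured in the same libraries. Calcrl, with which RAMP2 pairs, had 62 and 45 counts in anti-m6A, none in IgG and 1 and 0 in Input. By summed counts scaled to summed library size, anti-m6A held 228 times the Calcrl of Input (95% counting interval 40.1 to 9104; edgeR adjusted p = 0.00777), so the transcripts of both receptor chains were higher in the anti-m6A libraries. The call of Calcrl was lost without anti-m6A replicate 1 (edgeR adjusted p = 0.121) and without anti-m6A replicate 2 (0.109). Adm, the ligand adrenomedullin, had 107 and 45 counts in anti-m6A, none in IgG and 396 and 412 in Input, and its change from Input was -1.37 ± 0.51 on the log2 scale (SE; edgeR adjusted p = 0.0931). Of the 5 other genes of this system, 3 were tested, of which Calcrl and Ramp1 were called higher in anti-m6A than in Input, 2 in all, and none lower. Over all tested genes, 28.0% were called higher and 20.5% lower, and nothing is read from the counts of so short a list. Ramp3 and Adm2 had no count in any library. Ramp1, the chain that gives CALCRL affinity for CGRP, differed from Ramp2 in IgG, where it had 1056 and 528 counts, beside 446 and 441 in anti-m6A and 61 and 321 in Input. Its mean was 375 CPM in IgG, 102 CPM in anti-m6A and 19.2 CPM in Input. By edgeR, Ramp1 was called higher in IgG than in Input and lower in anti-m6A than in IgG.

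Vegfa, the ligand of KDR and FLT1, had 77 and 56 counts in anti-m6A, none in IgG and 143 and 178 in Input. Its log2 change from Input was -0.18 ± 0.41 (SE; edgeR adjusted p = 0.749). Of the 7 VEGF ligands and co-receptors tested, 1 was higher in anti-m6A than in Input, the lymphatic receptor Flt4, and none was lower. Angpt1, the activating ligand of TIE2, had 248 and 211 counts in anti-m6A, none in IgG and 1396 and 2310 in Input. Angpt1 was lower in anti-m6A than in Input, with a change of -1.90 ± 0.30 on the log2 scale (SE; edgeR adjusted p = 0.0110), and the edgeR adjusted p was 0.150 without anti-m6A replicate 1 and 0.136 without anti-m6A replicate 2. Of the 4 angiopoietin-system genes beside Tek and Tie1, none was higher and 2 were lower, Angpt1 and Ptprb, the phosphatase that restrains TIE2. Tek and its ligand Angpt1 were thus both lower in anti-m6A than in Input.

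Among 15 endothelial junction and surface genes, 11 were tested. Relative to Input, 4 were called higher in anti-m6A (S1pr1, Plvap, Egfl7 and Myct1) and 2 lower (Cd93 and Clec14a). S1pr1 was also called higher in IgG than in Input, with 1713 and 820 counts in IgG. Among 11 endothelial transcription factor genes, 4 were tested and 2 were higher, Tal1 and Lmo2. Among 18 genes of arterial, venous, sinusoidal and lymphatic endothelium, 10 were tested, and 4 were higher (Gja4, Gja5, Notch4 and Nos3) and 1 was lower (Esm1). Over all 61 such genes beyond the 9, 39 were tested, 13 were called higher and 5 lower, with a median log2 change of 0.13, where 28.0% of all tested genes were called higher and 20.5% lower with a median of 0.18. These counts are near the background shares, and nothing is read from them about the lists. Without anti-m6A replicate 1, and likewise without replicate 2, 1 of these 18 calls was made, that of Notch4; this count was added after the values were seen. The genes named in this paragraph were named once their values were known.

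Of the called genes among those 61, the 6 with the greatest fitted change from Input were Notch4, Gja5, Gja4, Myct1, Plvap and Nos3. Notch4, a NOTCH receptor of endothelium, had 166 and 190 counts in anti-m6A, none in IgG and none in Input, and was at least 127-fold higher in anti-m6A. Gja5, an arterial connexin gene, had 81 and 58 counts in anti-m6A and none elsewhere, at least 48.6-fold above the Input floor. Gja4, another, had 60 and 41 counts in anti-m6A and none elsewhere, at least 35.3-fold above it. Myct1 had 62 and 22 counts in anti-m6A and none elsewhere, at least 28.5-fold higher than in Input. Plvap, which forms the diaphragms of fenestrated endothelium, had 227 and 186 counts in anti-m6A, none in IgG and 2 and 0 in Input, a ratio of 441 by summed counts scaled to summed library size (95% counting interval 121 to 3652). Nos3, the endothelial nitric oxide synthase, was counted 31 and 31 times in anti-m6A, 3 and 0 times in IgG and never in Input, at least 22.0-fold higher than in Input. Of all tested genes, 12.3% likewise had no count in either Input library.

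Against IgG, 30 of the 39 tested companion genes were called higher in anti-m6A and 2 lower, near the 73.1% and 8.31% of all tested genes. The greatest bounds among them were at least 167-fold for Nrp2, 86.2-fold for Stab2, 78.5-fold for Vegfc, 61.0-fold for Egfl7, 55.4-fold for Eng and 34.6-fold for Angpt2. Relative to IgG, all 11 tested junction and surface genes were called higher in anti-m6A. In IgG against Input, 4 of the 39 were called higher, S1pr1 and Nos3 among them, and 23 lower, near the 9.89% and 61.5% of all tested genes. The call of Nos3 rests on 3 counts in IgG replicate 1, which is at the floor, so no fold is given for it. The greatest bounds were at least 125-fold lower for Angpt1, 113-fold for Nrp2, 102-fold for Stab2, 77.3-fold for Eng, 63.1-fold for Vegfc and 62.9-fold for Cd93. Nrp2 and Stab2, a neuropilin co-receptor and the scavenger receptor of sinusoids, were thus plainly measured in anti-m6A and in Input and at 0 in IgG.

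**Figure D3:**
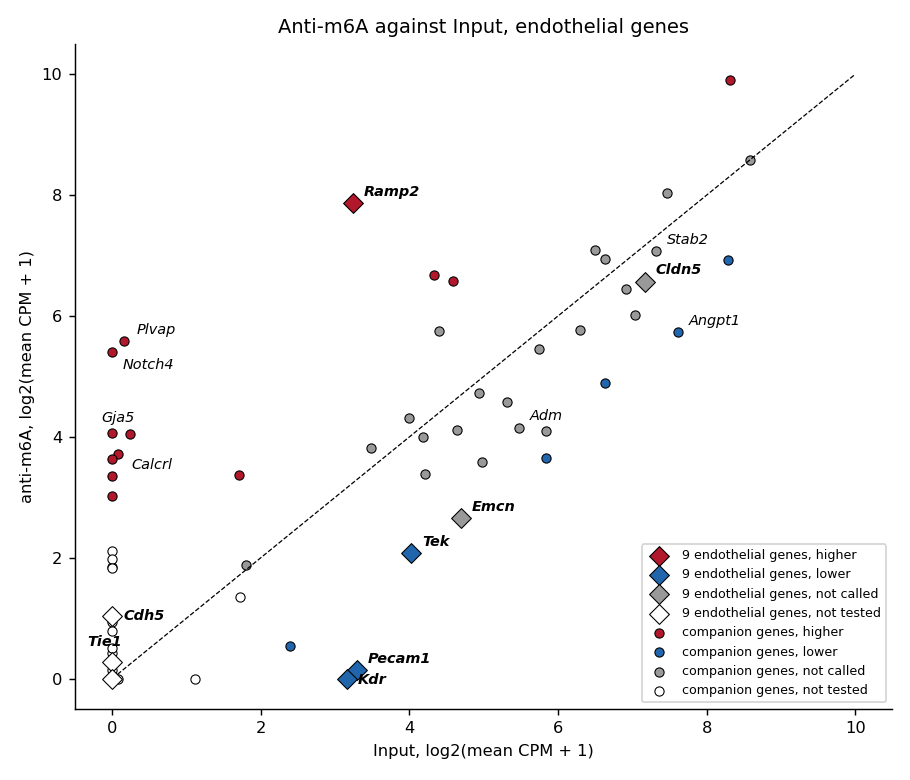
Mean level in the 2 anti-m6A libraries (vertical) against the 2 Input libraries (horizontal), both log2(mean CPM + 1), for the 9 endothelial genes (diamonds) and 61 companion genes (circles), coloured by the edgeR call; the dashed line marks equal levels. Ramp2 lies above the line, Tek, Pecam1 and Kdr below it, and genes such as Notch4 and Gja5 stand at 0 in Input.

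Several genes of the endothelial lists were at 0 throughout. Flt1, the transcription factor genes Erg, Gata2 and Hhex, and the surface receptor gene Adgrl4 had no count in any library. The same held for Lyve1, Clec4g, Oit3 and Prox1 of the arterial, venous, sinusoidal and lymphatic list. Absence was common, with 12754 of all 27179 genes at 0 in all libraries. In Input, Cdh5, Tie1, Esam, Robo4, Mmrn2, Sox17, Sox18, Vwf and Dll4 were also at 0. Other listed genes were well measured in Input, among them Cldn5, Stab2, Cd93 (852 and 975 counts) and Eng (807 and 1490 counts). The Input libraries thus gave counts for part of the endothelial set and none for another part. The source of these counts was not tested.

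Markers of other cell types moved between the fractions as well. Megakaryocyte and platelet markers, which matter for Pecam1, held 0.00623% and 0.00670% of counts in anti-m6A, 0 in IgG and 0.00612% and 0.00879% in Input, with 3 of 5 at 0 in Input. Blood markers held 0.0851% and 0.0968% in anti-m6A, 0.644% and 0.634% in IgG and 0.0576% and 0.0860% in Input, with Ptprc, Elane, Cd79a, Itgam, Spi1 and Cd52 at 0 in all libraries and 8 of 14 at 0 in Input. Pericyte and smooth muscle markers held 0.0197% and 0.0195% in anti-m6A, 0.00185% and 0.00117% in IgG and 0.0379% and 0.0548% in Input. Hepatocyte markers held 0.135% and 0.136% in anti-m6A, 2.33% and 2.48% in IgG and 0.171% and 0.321% in Input. In Input, Trf gave 24255 of these counts over both libraries, at 1298 ± 75.6 CPM (SD, n = 2). By edgeR, Trf was lower in IgG than in Input, while 5 of the 9 tested hepatocyte markers were higher. Apoa2 differed widely between the Input libraries, at 497 ± 629 CPM (SD, n = 2). Trf and Apoa2 were named once their values were known. The part of these cell types in the values of the 9 genes was not tested.

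Transcript length moved with the change from Input. Across 10306 tested genes, Spearman's rho between transcript length and the fitted log2 change in anti-m6A against Input was -0.20, and -0.27 over the 8023 genes above 0 in all 4 libraries. These are descriptions across genes, which share libraries and are not replicates. Ramp2, at 1178 bases, is shorter than Kdr, Tek and Pecam1, at 5924, 4654 and 3283 bases, and 14.3% of coding transcripts are shorter than it. Cldn5 and Emcn, at 1416 and 1357 bases, are nearly as short as Ramp2 and had log2 changes of -0.60 and -2.23. That of Emcn was 7.50 without Input replicate 2, so its direction is not settled. For GGACT per kilobase the same rho was 0.03. The part of length in the changes of the 9 genes was not tested.

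**Figure D4:**
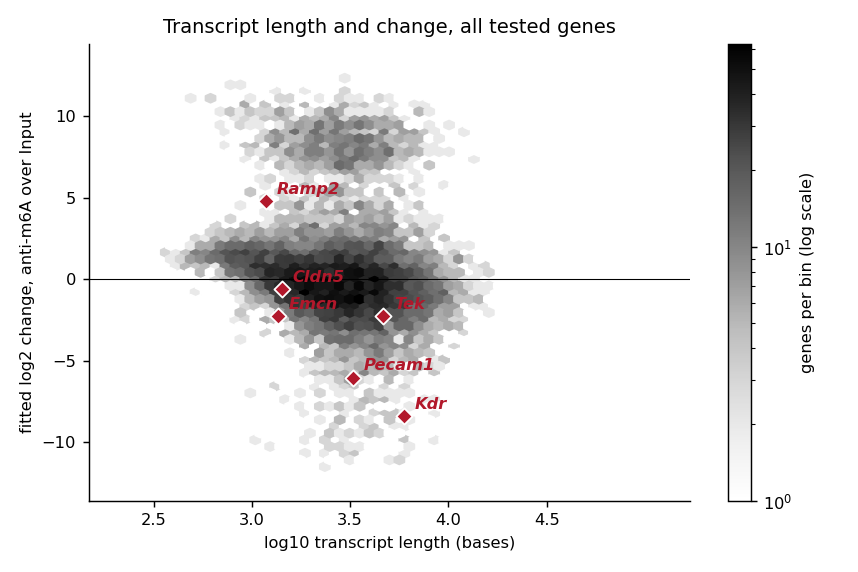
Fitted log2 change in anti-m6A over Input against log10 of transcript length in bases, with all tested genes as grey bins shaded by number of genes on a log scale and the 6 tested endothelial genes as red diamonds. Ramp2 lies at the short end with a change of 4.78, while Cldn5 and Emcn, of similar length, lie below 0 (Emcn at 7.50 without Input replicate 2); the values of genes at 0 in a group depend on the prior count of the fit.

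By Pearson's r of log2(CPM + 1) over the 6 libraries, the genes most like the summed 9 were Spcs2 (0.9994), a signal peptidase subunit gene, Cpxm1 (0.9994) and Phb (0.9986), which encodes prohibitin. Spcs2 was counted 1927 and 1665 times in anti-m6A, 2 and 2 times in IgG and 2668 and 2804 times in Input. Likeness of this kind was common, with 1119 of 11275 genes at an r of 0.99 or more.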

How the data were processed

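Poly(A) RNA of sorted stroma was measured as Input, IgG-bound and anti-m6A-bound fractions by the Smart-seq2 method, per the labels' protocols, which does not mark strand. The authors deposited raw counts per gene. Named in the submitters' processing notes are the build mm10 and the tools featureCounts, Picard and edgeR 3.38.1; the aligner is not given in the sources used here. Of 27179 Entrez gene numbers, 25275 matched a RefSeq symbol. Groups came from the sample titles. The tools were edgeR 4.0.16, limma 3.58.1 and R 4.3.3. The filter filterByExpr (minimum count 10, minimum total 15) left 11281 genes, and libraries were scaled by TMM. A quasi-likelihood fit of all 6 libraries with 3 group means gave 3 contrasts, with Benjamini-Hochberg adjustment over all genes and a threshold of 0.05. Because the fit pools the spread, leaving out 1 library assumes that the lone remaining library varies like the other groups. Replicate variance over genes was 9.93 times sampling noise in anti-m6A, 21.9 in IgG and 119 in Input. Folds against a group at 0 use a floor of 3 counts per library. Against 1 to 3 counts, the ratio of summed counts over summed TMM-adjusted library sizes is given with a 95% counting interval; it is not a ratio of mean CPM.

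Alternatives were DESeq2 size factors, library totals, DESeq2 1.42.0, 2 other count filters, the replicate number as a block, and leaving out each library. The fit was also run on simulated counts in which all groups shared the same baseline mean for each gene. That differs from these data, where many genes are at 0 in IgG, so no call here rests on it. Coordinates are RefSeq gene spans on GRCm38, the build mm10 names; transcripts are from GENCODE M21, 1 per gene. Cdh5, Kdr, Emcn and Flt1 each overlap 1 other RefSeq gene, each with 0 counts. The named genes are the 9, their partners Vegfa, Angpt1, Calcrl and Adm, up to 6 called companion genes per comparison with the greatest change, markers at 0, and the 3 genes most like the summed 9. The 9 genes and the companion lists were chosen with earlier results of these data known.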

Additional observations from a re-analysis of the deposited data

How the results depend on the processing

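Of the 175 values that the alternatives gave for single endothelial genes, 155 kept their direction and side of the threshold, 12 lost a call, 6 gained one and 2 reversed. Ramp2 kept its calls in all 3 comparisons under each alternative that could be fitted for it, though fits without 1 library do not measure the spread of that library's group. Requiring 10 counts in each library left 1179 calls over all genes in anti-m6A against IgG, of 9187, with 928 of 5464 in anti-m6A against Input and 1051 of 8057 in IgG against Input; none of the 9 genes passes that filter. Leaving out single libraries gave 7239 to 10265, 442 to 8691 and 7217 to 9188 calls in those 3 comparisons, and 2 to 4, 1 to 5 and 5 to 6 calls among the 9 genes. Correlations across genes of the deviations between same-numbered libraries were low (0.0997, 0.0859 and 0.0415). They cannot show whether libraries of the same number came from the same RNA. With the replicate number as a block, anti-m6A against Input had 3364 calls, 2 of them among the 9 genes (Ramp2 and Pecam1). The calls of Tek and Kdr were thus lost. In that fit Emcn turned to a log2 change of 0.60 (edgeR adjusted p = 0.899). Emcn was at -3.21 without Input replicate 1 and turned to 7.50 without Input replicate 2; the cause was not tested beyond its counts of 0 and 511. DESeq2 size factors and library totals moved the median of anti-m6A against Input over all genes to -0.22 and -0.32, against 0.18 with TMM, and the share of higher calls to 47.6% (2711 higher, 2982 lower) and 45.5% (2609 higher, 3127 lower), against 57.8% with TMM; Ramp2 stayed higher and Tek, Pecam1 and Kdr lower under both. The DESeq2 Wald test also called Cldn5 lower in anti-m6A than in Input (adjusted p = 0.0106). The mean summed share was 0.0337% in anti-m6A and 0.0208% in Input on the TMM-adjusted size. On raw totals it was 0.00810% and 0.0227% without Ramp2 and 0.0190% and 0.00735% without Cldn5, in anti-m6A and in Input each time. With 2 libraries a group and IgG totals of 1278735 and 2487148 counts, low genes such as Cdh5 and Tie1 could not be tested.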
